A study of Saccharomyces cerevisiae with 13 samples.

Results

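Transcript levels of the TIR, DAN and CWP mannoprotein genes of Saccharomyces cerevisiae were followed in wild-type cells and in tRNA deletion strains. The members are the 8 genes TIR1, TIR2, TIR3, TIR4, DAN1, DAN4, CWP1 and CWP2, taken by gene symbol out of 5446 protein-coding genes that had a probe set of their own on an Affymetrix yeast 2.0 array. The list was drawn up with results of these arrays already known, TIR1's low signal in one strain among them. In that strain, ΔtR(CCU)J, the members' values are therefore given as a description.

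The 13 arrays covered 3 wild-type cultures and 2 cultures of each of 5 deletion strains. All strains shared the Y5565 background, a MATα haploid with lyp1Δ, ura3Δ0 and leu2Δ0, with can1Δ::MFA1pr-HIS3 and with mfα1Δ::MFα1pr-LEU2, and each deletion strain had 1 tRNA gene replaced by a hygromycin B resistance cassette. The wild type is not unmarked: per the study's methods it carries that resistance gene too, inserted upstream of the leucine tRNA gene tL(CAA)L3. ΔtR(CCU)J lacks the only gene for the arginine tRNA with anticodon CCU and ΔtL(GAG)G the only gene for the leucine tRNA with anticodon GAG. ΔtM(CAU) lacks a methionine tRNA gene whose copy the label does not name, and the initiator tRNA gene is the only deletion with this anticodon that the study describes for expression. These 3 strains form the SC group. The MC group holds ΔtH(GUG)G1, which lacks 1 of several gene copies for a histidine tRNA, and ΔtR(UCU)M2, which lacks 1 of several for an arginine tRNA. The cells were harvested in mid-log growth in YPD, a rich medium, at 30 °C. Values are log2 of the deposited array signal, so a difference of 1 is a doubling. The deleted tRNA genes were not among the genes analysed here, and the strain labels were not checked on the deleted gene itself.

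The yeast cell wall is a mesh of glucan and chitin covered by a coat of mannoproteins, many of which are tethered through a glycosylphosphatidylinositol (GPI) remnant. The composition of that coat depends on the conditions: CWP1 and CWP2 encode major wall mannoproteins of aerobically growing cells, while the TIR genes and DAN1 and DAN4 encode serine- and alanine-rich mannoproteins that are known for their expression when oxygen is scarce, with TIR1 and TIR2 also known as cold-shock genes. In aerobic cells heme-dependent repressors, Rox1 and Mot3 among them, hold much of the anaerobic set down, and Upc2 is an activator of it. The cultures here were not labelled as anaerobic or cold-shocked.

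Each member had a single probe set. Among them 3 pairs are direct neighbours on a chromosome with 0 protein-coding genes between them in the RefSeq annotation: TIR2 (YOR010C) and TIR4 (YOR009W) on chromosome XV, DAN1 (YJR150C) and DAN4 (YJR151C) on chromosome X, and CWP1 (YKL096W) and CWP2 (YKL096W-A) on chromosome XI. TIR1 (YER011W) lies on chromosome V and TIR3 (YIL011W) on chromosome IX. A signal was taken as above background when it exceeded the 95th percentile of the 1746 Schizosaccharomyces pombe probe sets on the same array, which lay at log2 3.69 to 4.43. By this measure 96.5 to 98.3% of all genes were above background on an array. TIR1, TIR2, TIR3, TIR4, DAN4, CWP1 and CWP2 were above background on all 13 arrays. DAN1 was above it on 3 of 13, so it has a measured level on those 3 only.

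The arrays did not resemble each other by strain alone. The study's methods mention batches, each with its own wild-type measurement, and the labels name none. By the best correlation over 3992 genes with a mean log2 signal over 8, the first replicates of ΔtM(CAU), ΔtR(CCU)J and ΔtL(GAG)G were nearest to wild-type replicate 1, the first replicates of both MC strains to wild-type replicate 2, and all 5 second replicates to wild-type replicate 3. Differences against that nearest wild-type array are given below where they bear on a member. The labelled mating type matched its marker genes: the 3 MATα genes MF(ALPHA)2, SAG1 and STE3 gave log2 10.16 to 13.10 on all arrays, and 7 MATa genes 1.04 to 7.08.

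**Figure D1:**
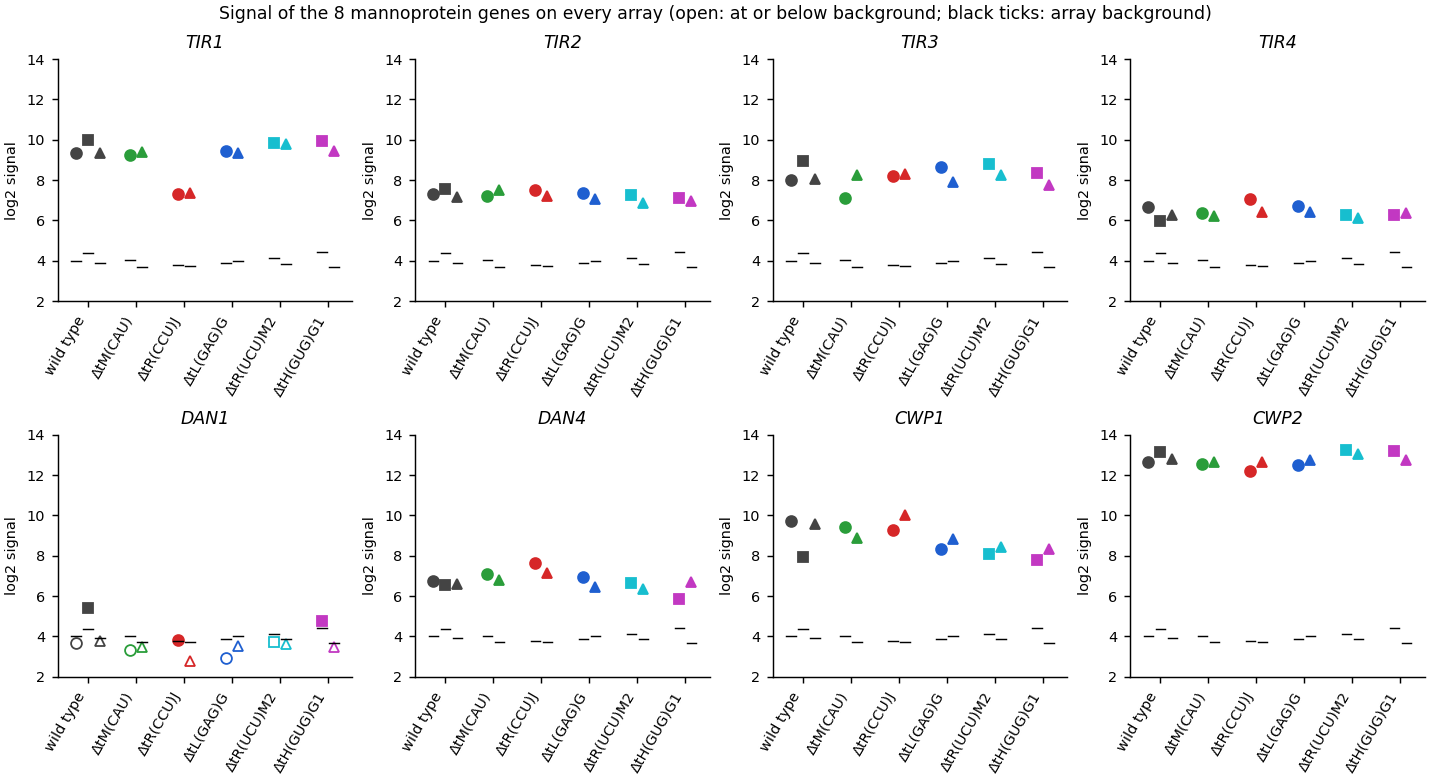
Log2 signal of each of the 8 genes (one panel each) on all 13 arrays, grouped by strain. Circles, squares and triangles mark arrays nearest to wild-type replicates 1, 2 and 3, open symbols lie at or below background and black ticks give each array's background. TIR1 lies at 7.30 and 7.36 in ΔtR(CCU)J and at 9.22 or above on every other array, and DAN1 is open on 10 of 13 arrays.

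TIR1, a serine- and alanine-rich mannoprotein gene of the hypoxic and cold-shock response, stood low in ΔtR(CCU)J and in no other strain. The wild-type arrays gave log2 9.33, 9.99 and 9.35, and the ΔtR(CCU)J arrays 7.30 and 7.36. The remaining deletion arrays gave 9.22 and 9.39 in ΔtM(CAU), 9.46 and 9.34 in ΔtL(GAG)G, 9.87 and 9.79 in ΔtR(UCU)M2, as well as 9.92 and 9.43 in ΔtH(GUG)G1. Both ΔtR(CCU)J arrays were thus below all 11 others. Each other deletion strain overlapped the wild-type arrays, but not all of them overlapped each other. ΔtR(UCU)M2 lay above both ΔtM(CAU) and ΔtL(GAG)G, and ΔtH(GUG)G1 lay above ΔtM(CAU). The mean in ΔtR(CCU)J was lower than in wild type by 4.68-fold, a log2 difference of -2.23 with a standard error of 0.21 (n = 2 and 3).

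The gap between the higher ΔtR(CCU)J array and the lowest of the other 11 arrays was 1.86 on the log2 scale for TIR1. This gap below was wider than that of any other of the 5446 genes, the next being HXT13, a hexose transporter gene, at 1.78 and ARG3, an arginine synthesis gene, at 1.62. Both ΔtR(CCU)J arrays lay below all others for 365 genes and above all others for 1067. By the size of its difference from wild type TIR1 ranked 6 of 5446 genes from the lowest, and 2 of the 3992 brighter genes. Since the list was made with TIR1's low signal known, these ranks describe the gene and test nothing.

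**Figure D2:**
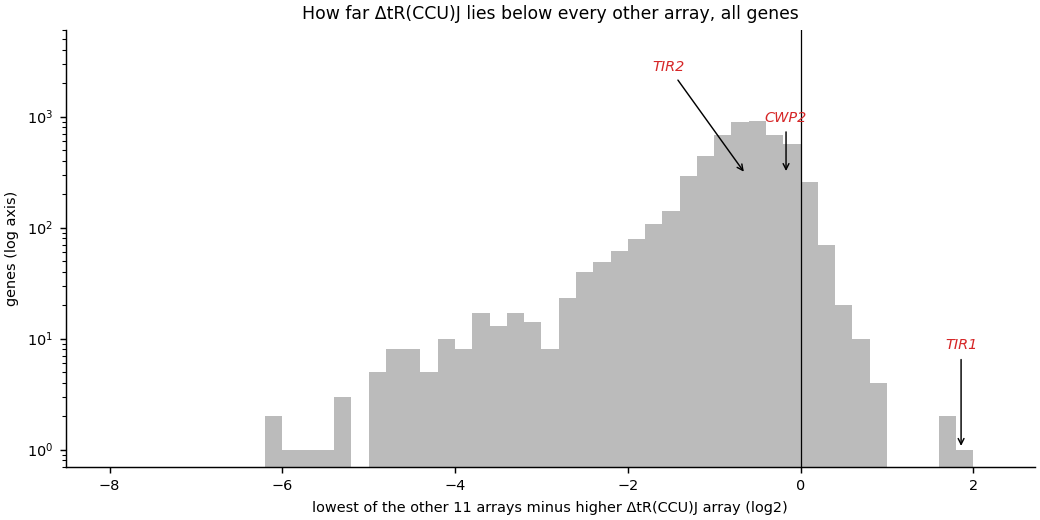
Number of genes (log axis) by the gap, in log2 units, between the higher ΔtR(CCU)J array and the lowest of the other 11 arrays, for 5446 genes. Values right of the line are genes for which both ΔtR(CCU)J arrays lie below all others, and TIR1 at 1.86 is the farthest right.

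TIR1's low level did not rest on the choice of wild-type array. Against the nearest wild-type array it was lower by 2.04 on the log2 scale in the first replicate of ΔtR(CCU)J and by 1.99 in the second. Against their own nearest wild-type arrays, the other strains lay between -0.12 and 0.44 for this gene. In bulk cultures such as these, fewer cells with a transcript and less transcript per cell cannot be told apart. The median gene was higher in ΔtR(CCU)J than in wild type by 0.17 on the log2 scale, and with each array centred on its median gene the TIR1 difference was -2.43. Of the lists of cell type markers, the summed signal of the 3 MATα genes was 5348 to 8115 in ΔtR(CCU)J against 8315 to 15411 in wild type, with 0 of the 3 genes called. That of the 7 MATa genes was 342 to 512 against 304 to 370. The MATa sum was higher still in ΔtM(CAU), at 528 to 564. It was 374 to 379 in ΔtL(GAG)G, 324 to 451 in ΔtR(UCU)M2 and 298 to 378 in ΔtH(GUG)G1. ASG7 was the lowest of these 7 genes, above background on 6 of 13 arrays. Whether these levels have a part in the TIR1 difference was not tested.

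The other TIR genes did not share this pattern in ΔtR(CCU)J. TIR2, known like TIR1 from the cold-shock response, gave log2 7.32, 7.56 and 7.15 in wild type and 7.50 and 7.23 in ΔtR(CCU)J. Its arrays overlapped, and its log2 difference of 0.02 (SE 0.18) turned to -0.18 with median centring and -0.37 with quantile normalization. TIR3, required for anaerobic growth, gave 7.98, 8.93 and 8.05 in wild type and 8.20 and 8.28 in ΔtR(CCU)J, a log2 difference of -0.08 (SE 0.40). TIR4, also required for anaerobic growth, gave 6.68, 5.95 and 6.28 in wild type and 7.05 and 6.43 in ΔtR(CCU)J. Its difference of 0.44 (SE 0.23) was 0.13 without the first ΔtR(CCU)J replicate, 0.74 without the second, and 0.07 with quantile normalization.

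DAN4 was the member with the largest positive difference in ΔtR(CCU)J. It gave log2 6.73, 6.56 and 6.62 in wild type and 7.66 and 7.17 in ΔtR(CCU)J, so that both deletion arrays were above all wild-type arrays. The log2 difference was 0.77 (SE 0.26), and 0.38 with quantile normalization. Arrays without overlap in this direction were found for 31.6% of all genes in this comparison, and in the TIR1 direction for 12.5%. DAN1, its neighbour, gave 3.68, 5.40 and 3.75 in wild type and 3.81 and 2.77 in ΔtR(CCU)J. Only wild-type replicate 2 and the first ΔtR(CCU)J replicate were above background among these 5 arrays, so no fold is given.

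The CWP pair had differences of opposite sign, each with arrays that overlapped wild type. CWP1 gave log2 9.73, 7.91 and 9.57 in wild type and 9.28 and 9.996 in ΔtR(CCU)J, a difference of 0.57 (SE 0.50). CWP2 gave 12.64, 13.13 and 12.80 in wild type and 12.18 and 12.66 in ΔtR(CCU)J, a difference of -0.44 (SE 0.20). The CWP2 difference was -0.20 without the first ΔtR(CCU)J replicate and -0.68 without the second. Of the 8 members, TIR1 alone was called lower in ΔtR(CCU)J and 0 were called higher by limma at an adjusted p under 0.05 over all genes, where 1.93% of genes were called lower, 6.63% higher and 8.56% in either direction. The TIR1 call was lost when only the 5 arrays of the comparison were fitted, and nothing is read from the count because this strain's TIR1 value was known when the list was made. The median difference over the 8 members was -0.03, beside 0.17 over all genes.

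**Figure D3:**
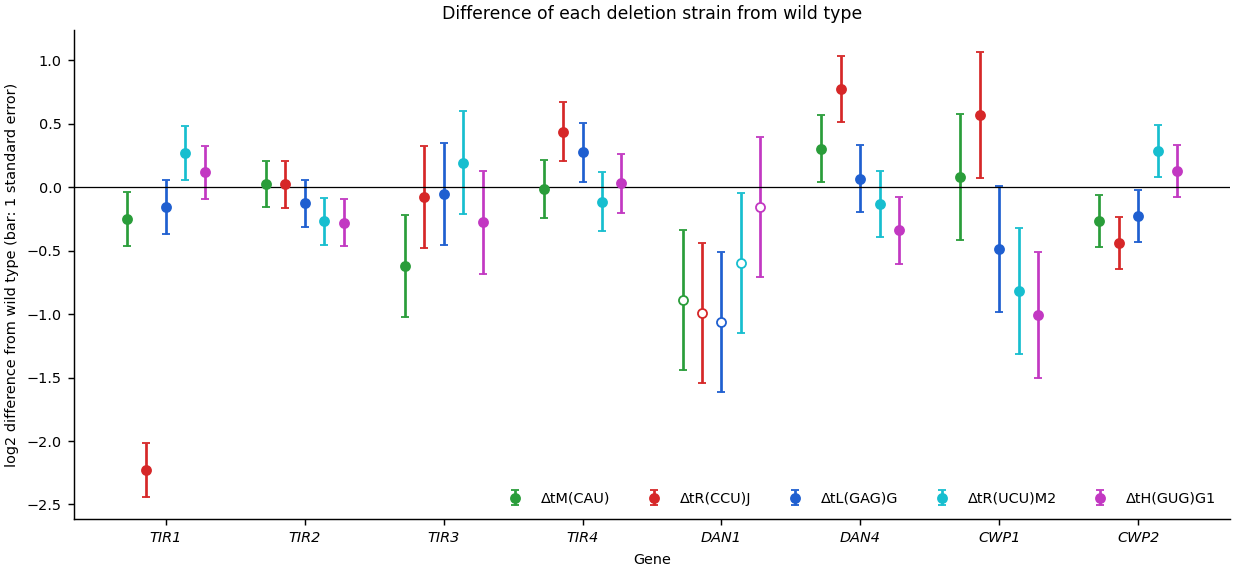
Log2 difference of each deletion strain from wild type for the 8 genes, with bars of 1 standard error from the fit across all genes and open symbols for DAN1, which was mostly below background. TIR1 in ΔtR(CCU)J lies at -2.23, and the 4 other strains lie between -0.25 and 0.27 for that gene.

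In ΔtL(GAG)G, the other strain that lost the only gene for its anticodon, no member passed the test. TIR1 differed by -0.16 on the log2 scale (SE 0.21) and CWP1 by -0.49 (SE 0.50). Against the nearest wild-type arrays CWP1 was lower on both ΔtL(GAG)G arrays (-1.40 and -0.74), and with the nearest wild-type array as a block the difference was -0.81. TIR2 gave log2 7.36 and 7.07, TIR3 8.63 and 7.90, and TIR4 6.74 and 6.42, all overlapping the wild-type arrays. CWP2 gave 12.49 and 12.77 against 12.64 to 13.13 in wild type, and DAN4 6.96 and 6.44 against 6.56 to 6.73. DAN1 gave 2.93 and 3.50, both below background and below the wild-type arrays, where 10.8% of all genes lay apart from wild type in this direction and 15.7% in the other. By limma 0 of 8 members were called, with 0.0551% of genes called in this comparison (0.0367% higher and 0.0184% lower), and 0 members had an unadjusted p under 0.05. The smallest adjusted p among the members was 0.649.

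ΔtM(CAU) gave the same count with a different spread. TIR1 differed from wild type by -0.25 (SE 0.21) on the log2 scale and TIR4 by -0.01 (SE 0.23). TIR3 gave log2 7.13 and 8.27, arrays that disagreed by more than those of any other strain for this gene. Its difference of -0.62 (SE 0.40) was -0.05 without the first ΔtM(CAU) replicate and -1.19 without the second. DAN4 gave 7.07 and 6.81, above the wild-type range of 6.56 to 6.73, a difference of 0.30 (SE 0.26). Such a lack of overlap was seen for 13.6% of genes in that direction, and for 6.04% in the lower direction, where DAN1 at 3.32 and 3.46 was below background on both arrays. CWP1 gave 9.41 and 8.90 and CWP2 12.53 and 12.65, with differences of 0.08 (SE 0.50) and -0.27 (SE 0.20), and the sign for TIR2 turned with quantile normalization (0.03 to -0.12). The sign for CWP1 depended on the wild-type arrays: against the nearest ones both ΔtM(CAU) arrays were lower (-0.31 and -0.68), the difference was -0.24 with the nearest wild-type array as a block, and it was -0.02 with quantile normalization. Limma called 0 of 8 members and 0.0367% of genes, and 0 members had an unadjusted p under 0.05 (smallest adjusted p 0.987).

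The MC strains each lost 1 of several copies. In ΔtR(UCU)M2, whose arginine tRNA differs in anticodon from that lost in ΔtR(CCU)J, TIR1 differed from wild type by 0.27 (SE 0.21) on the log2 scale, and 0 of 8 members had arrays apart from wild type, where 4.13% of genes lay apart as higher and 5.93% as lower. TIR2 gave log2 7.29 and 6.87, TIR3 8.78 and 8.25, TIR4 6.27 and 6.11, and DAN4 6.66 and 6.35. In ΔtH(GUG)G1 TIR1 differed by 0.12 (SE 0.21). TIR2 gave 7.14 and 6.99, both below the lowest wild-type array at 7.15, a difference of -0.28 (SE 0.18), and 4.46% of genes lay apart in that direction (5.14% in the other). DAN4 gave 5.88 and 6.72, and its difference of -0.34 (SE 0.26) was 0.08 without the first ΔtH(GUG)G1 replicate and -0.76 without the second. TIR3 and TIR4 overlapped wild type at 8.34 and 7.75, and at 6.28 and 6.39. Limma called 0 of 8 members in each MC strain, with 0% of genes called and 0 members at an unadjusted p under 0.05.

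CWP1, a major mannoprotein gene of the aerobic wall, was the member that varied most in wild type. Its 3 wild-type arrays spanned 1.81 on the log2 scale, a wider range than that of 97.7% of genes, with wild-type replicate 2 at 7.91 and the others at 9.73 and 9.57. In ΔtR(UCU)M2 it gave 8.08 and 8.44, a difference of -0.82 (SE 0.50), and in ΔtH(GUG)G1 7.79 and 8.34, a difference of -1.01 (SE 0.50). Against the nearest wild-type array, the first replicates of these strains differed by 0.16 and -0.13, and the second replicates by -1.14 and -1.23. The direction for ΔtR(UCU)M2 thus differed between its arrays, and the value depended on which wild-type array was set beside it.

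CWP2, the other aerobic wall gene, was highest on the arrays where CWP1 was lowest. The 3 arrays nearest to wild-type replicate 2 held the lowest CWP1 signals, 7.79 to 8.08, and the highest CWP2 signals, 13.13 to 13.22. Arrays nearest to wild-type replicate 1 spanned 8.33 to 9.73 for CWP1 and 12.18 to 12.64 for CWP2, and those nearest to replicate 3 8.34 to 9.996 and 12.65 to 13.06. Outside the arrays nearest to replicate 2 the genes did not always run opposite. Both were higher on the second than on the first replicate in ΔtR(CCU)J and in ΔtL(GAG)G, while in ΔtM(CAU) they moved in opposite directions. With strain means removed their correlation was r = -0.41. CWP2 differed from wild type by 0.28 in ΔtR(UCU)M2 (SE 0.20). The corresponding value in ΔtH(GUG)G1 was 0.12 (SE 0.20).

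**Figure D4:**
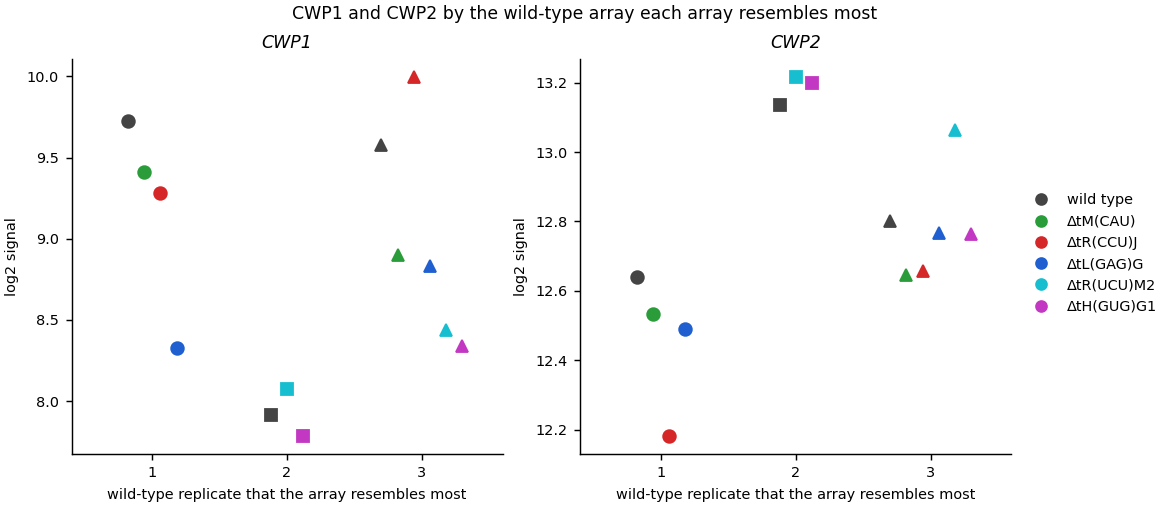
Log2 signal of CWP1 (left) and CWP2 (right) by the wild-type replicate that each of the 13 arrays resembled most, coloured by strain, with axes that do not start at 0. The 3 arrays nearest to wild-type replicate 2 have the lowest CWP1 signals (7.79 to 8.08) and the highest CWP2 signals (13.13 to 13.22).

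The SC and MC strains were also set against each other, as the mean of 3 strain means against the mean of 2. TIR1 averaged log2 8.68 in the 6 SC arrays and 9.75 in the 4 MC arrays, a difference of -1.07 (SE 0.15), and was the only member that limma called. In this comparison 0.22% of genes were called, 0.165% higher and 0.0551% lower, and the median gene was higher in SC by 0.11. This value contains the ΔtR(CCU)J arrays, whose TIR1 level was known when the list was made, so it is a description and no p is given. Without that strain the difference was -0.40 and not called (adjusted p = 0.316). The call was also lost with the nearest wild-type array as a block (-0.83), with strain as a random block, within the first replicates (-1.23) and within the second (-0.91). Leaving out 1 array left the difference between -1.19 and -0.95. The call was lost without either array of ΔtM(CAU), ΔtL(GAG)G or ΔtR(UCU)M2, and without the first replicate of ΔtR(CCU)J or ΔtH(GUG)G1.

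The other 7 members did not pass the threshold in this comparison. CWP2 averaged 12.55 in SC and 13.06 in MC, a log2 difference of -0.52 (SE 0.14, adjusted p = 0.0707). DAN4 averaged 7.02 and 6.40, a difference of 0.62 (SE 0.19, adjusted p = 0.0794), and CWP1 9.13 and 8.16, a difference of 0.96 (SE 0.35, adjusted p = 0.108). With TIR1 these were the 4 members with an unadjusted p under 0.05, which 29.7% of all genes had. These p-values and standard errors measure the spread between cultures of a strain and not between the strains of a group. With strain as a random block no member was called. All 8 members overlapped between the SC and the MC arrays, where 5.47% of genes lay apart as higher and 2.15% as lower in SC. Within the first and the second replicates, of which the second all resembled one wild-type array, DAN4 differed by 0.96 and 0.27, CWP2 by -0.81 and -0.22, and CWP1 by 1.08 and 0.85. TIR2, TIR3 and TIR4 differed by 0.25 (SE 0.13), -0.21 (SE 0.29) and 0.28 (SE 0.16). With the nearest wild-type array as a block the differences were smaller for DAN4 (0.39), CWP2 (-0.24) and CWP1 (0.48), and TIR3 turned to 0.21. Quantile normalization gave 0.43 for DAN4, -0.23 for CWP2 and 0.80 for CWP1.

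Within strains the members differed in how closely repeats agreed. The standard deviation within strains was 0.25 on the log2 scale for TIR1, 0.21 for TIR2, 0.28 for TIR4, 0.24 for CWP2 and 0.32 for DAN4, beside a median of 0.20 over all genes. TIR3 at 0.51 and CWP1 at 0.63 were wider than 91.7% and 94.7% of genes. DAN4 had a narrow wild-type range of 0.17 (12.4% of genes were narrower), although its deletion arrays ran from 5.88 to 7.66.

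Over the 13 arrays the members did not rise and fall as one group. Of 21 pairs among the 7 members above background on all arrays, 10 had a positive correlation, with r from -0.84 (DAN4 and CWP2) to 0.71 (TIR1 and CWP2). With strain means removed the range was -0.88 (TIR1 and CWP1) to 0.82 (TIR2 and TIR3). The neighbours TIR2 and TIR4 had r = 0.23 and CWP1 and CWP2 had r = -0.64. These correlations are descriptions, since the arrays share strains, processing and the array resemblance described above.

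The genes most like each member over the 13 arrays were taken by Pearson correlation among 3988 genes of mean log2 signal over 8. For TIR1 they were RKI1 (r = 0.97), a pentose phosphate isomerase gene, RPC40 (0.96), a subunit shared by RNA polymerases I and III, LSM2 (0.96), FUR1 (0.96) and TFA2 (0.96). Each of these genes, like TIR1, was lower on both ΔtR(CCU)J arrays than on any other array. Their r values therefore largely restate that strain's low signals, and shared regulation was not tested. For CWP2 they were the ribosomal protein genes RPS24A (0.99) and RPS26B (0.98) and the glycolytic gene TDH3 (0.98). For TIR2 the closest was YLR278C (0.91), for TIR3 RCR1 (0.77), for TIR4 CYK3 (0.94), for DAN4 SPT7 (0.92) and for CWP1 SGT2 (0.91). TIR3 thus had the weakest closest match of these members.

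Genes related to the members by sequence or function were followed in 8 lists with 137 measured genes outside the members. In ΔtR(CCU)J limma called 8 of the 137 higher (5.84%) and 3 lower (2.19%), beside 6.63% and 1.93% of all genes. There 39 of the 137 had an unadjusted p under 0.05 (28.5%), beside 31.7% of all genes. In the other strains 0 were called. At an unadjusted p under 0.05 were 6 in ΔtL(GAG)G (4.38%, beside 7.93% of all genes) and 4 in ΔtM(CAU) (2.92%, beside 2.17%). The counts were 1 in ΔtH(GUG)G1 (0.73%, beside 1.74%) and 0 in ΔtR(UCU)M2 (beside 1.32%). In SC against MC 0 were called, with 32 at an unadjusted p under 0.05 (23.4%, beside 29.7% of all genes). When only the arrays of the comparison were fitted, all 11 calls in ΔtR(CCU)J were lost.

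Some seripauperins, a largely subtelomeric family related to the TIR and DAN genes, rose in ΔtR(CCU)J, where TIR1 was low. Of 14 measured genes on the list of 25 relatives, 3 were called higher and 0 lower, with a median of 0.33 beside 0.17 over all genes. Over all genes 6.63% were called higher and 1.93% lower. At an unadjusted p under 0.05 were 4 of the 14, beside 31.7% of all genes. PAU7 gave log2 6.31, 6.46 and 6.32 in wild type and 7.52 and 7.59 in ΔtR(CCU)J, a difference of 1.19 (SE 0.14, adjusted p = 0.00524). PAU5 gave 6.15, 5.62 and 6.02 against 7.57 and 7.19, a difference of 1.45 (SE 0.25, adjusted p = 0.0165), and lost its call without the first ΔtR(CCU)J replicate (adjusted p = 0.108). PAU2 differed by 1.32 (SE 0.32, adjusted p = 0.0386) and kept its call in 4 of 13 fits with 1 array left out, and lost it with median centring (1.12, adjusted p = 0.0666) and quantile normalization (0.94, adjusted p = 0.196). The probe sets for PAU2 and PAU7 are of a type that can bind several near-identical copies, so their values may mix family members. TIP1, a cold- and hypoxia-induced mannoprotein gene close to the TIR genes, gave 11.85, 12.66 and 11.91 in wild type and 11.26 and 11.24 in ΔtR(CCU)J. Both deletion arrays were below all wild-type arrays, as for TIR1, and the log2 difference was -0.88 (SE 0.25, adjusted p = 0.0559).

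Among 25 measured genes of the cell wall integrity pathway, the kinase cascade that answers wall damage, 4 were called higher in ΔtR(CCU)J and 0 lower, with a median of 0.37. Over all genes 6.63% were called higher and 1.93% lower, and the median was 0.17. At an unadjusted p under 0.05 were 9 of the 25, beside 31.7% of all genes. MKK2, a kinase kinase of the pathway, gave log2 7.71, 7.71 and 7.72 in wild type and 8.27 and 8.26 in ΔtR(CCU)J (difference 0.55, SE 0.10, adjusted p = 0.019). SLT2, the kinase at its end, gave 9.64, 9.65 and 9.26 against 10.93 and 10.09 (difference 0.99, SE 0.24, adjusted p = 0.0384). KDX1, a target of the pathway, differed by 1.43 (SE 0.30, adjusted p = 0.0262), and SWI6, a transcription cofactor, by 0.49 (SE 0.11, adjusted p = 0.0351). MKK2, SLT2 and SWI6 were not called with median centring, and none of the 4 with quantile normalization, which gave 0.22 for MKK2, 0.95 for SLT2, 1.06 for KDX1 and 0.20 for SWI6. Without the first ΔtR(CCU)J replicate all 4 lost their calls, with adjusted p of 0.0962 for MKK2, 0.206 for SLT2 and 0.155 for KDX1 and SWI6. The other calls lost with 1 array left out are counted in the closing section.

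The remaining wall lists held few calls in ΔtR(CCU)J, where 6.63% of all genes were called higher and 1.93% lower. Of 23 other GPI wall proteins, FIT1, an iron-retaining mannoprotein gene, was called higher (0.64, SE 0.17, adjusted p = 0.0446, but not with median centring at 0.44 or quantile normalization at 0.29) and PLB2, a phospholipase B gene, lower (-1.002, SE 0.22, adjusted p = 0.031), with a list median of 0.26. CCW12, an abundant wall protein gene, gave log2 13.02, 13.35 and 13.14 in wild type and 12.28 and 12.89 in ΔtR(CCU)J. Of 4 PIR genes, whose products are linked directly to glucan, and 24 genes of glucan and chitin synthesis and remodelling limma called 0, with 1 and 3 at an unadjusted p under 0.05 and medians of -0.02 and 0.04. Of the 23 other GPI wall protein genes 7 had such a p, as did 31.7% of all genes. PIR3 gave 8.25 and 6.48 in ΔtR(CCU)J against 5.90 to 6.15 in wild type, so its arrays of that strain differed by more than the wild-type range.

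The regulators of the hypoxic genes and hypoxic genes outside the wall were followed in the same strain. Of 14 regulators limma called 0 in ΔtR(CCU)J, with 3 at an unadjusted p under 0.05, beside 31.7% of all genes, and a median of 0.18. These 3 were HOG1 (difference 0.35, SE 0.12), SPT23 (0.44, SE 0.19) and SUT1 (-0.61, SE 0.23). SUT1 gave log2 8.66, 8.20 and 8.10 in wild type and 8.02 and 7.40 in ΔtR(CCU)J, both below all wild-type arrays. UPC2, the activator, gave log2 8.04, 8.20 and 7.77 in wild type and 8.47 and 8.01 in ΔtR(CCU)J, and the repressor genes ROX1 and MOT3 differed by 0.37 (SE 0.59) and 0.02 (SE 0.23). Of 15 hypoxic genes outside the wall 2 were called lower and 0 higher, beside 1.93% and 6.63% of all genes. The list had 8 genes at an unadjusted p under 0.05, beside 31.7% of all genes, and a median of -0.13 beside 0.17. The 2 called were PLB2 and YHB1. PLB2, given above, is also on the list of other GPI wall proteins, so it is not outside the wall and the same call counts on both lists. YHB1, a nitric oxide-consuming flavohemoglobin gene, gave 12.73, 12.89 and 12.76 in wild type against 12.01 and 12.15 (difference -0.71, SE 0.12, adjusted p = 0.0162). Its call was lost without the first ΔtR(CCU)J replicate (adjusted p = 0.093). AAC3, the anaerobic ADP/ATP carrier gene, differed by -0.92 (SE 0.25, adjusted p = 0.0535). Of 27 sterol genes 1 was called lower, ERG3 (-0.60, SE 0.16, adjusted p = 0.0488, but not with quantile normalization at -0.49), with a median of -0.06. At an unadjusted p under 0.05 were 7 of the 27. With the replicate number as a block, FIT1 (0.68, adjusted p = 0.0527), KDX1 (1.41, adjusted p = 0.0534), SLT2 (0.86, adjusted p = 0.0625), ERG3 (-0.64, adjusted p = 0.0614) and SWI6 (0.47, adjusted p just over 0.05) were not called.

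**Figure D5:**
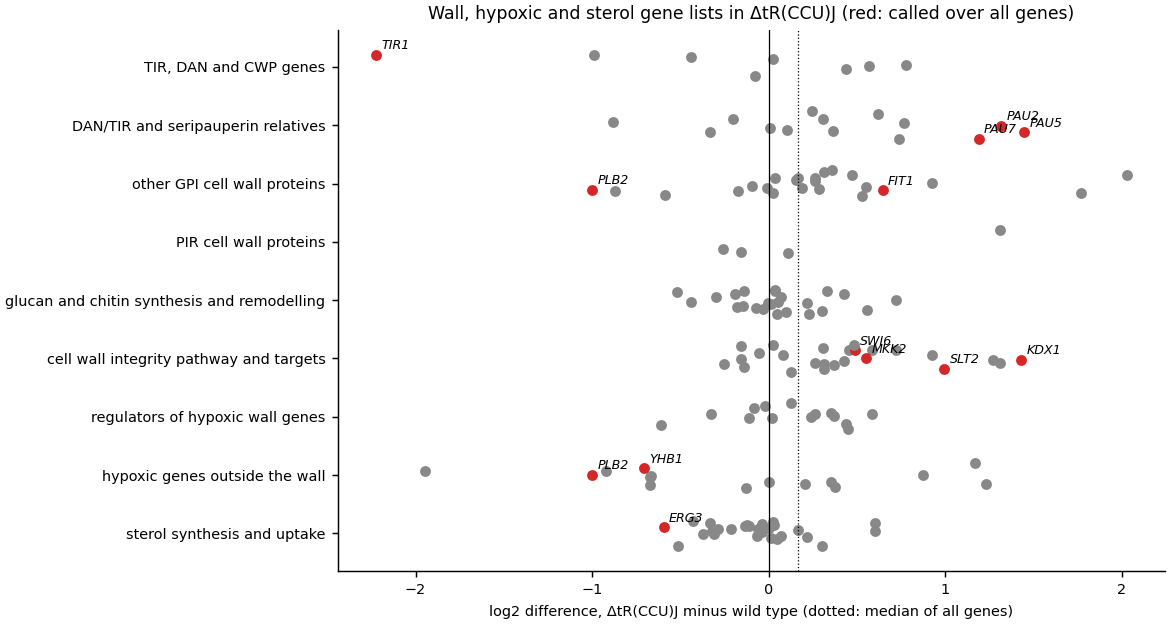
Log2 difference of ΔtR(CCU)J from wild type for each measured gene of the 8 members (top row) and of the 8 gene lists, with genes called over all genes in red and the median of all genes (0.17) dotted. TIR1 at -2.23 lies farthest left, while PAU2, PAU5 and PAU7 lie between 1.19 and 1.45.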

How the data were processed

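The 13 one-colour arrays were hybridised with cRNA made from poly(T)-primed cDNA. Per the labels the signals were computed with GCRMA, whereas the study's methods name RMA background adjustment and a normalization between arrays; software versions and a genome build are not given in the sources used here. The deposited intensity values were linear, with a mean of 500.2 to 500.3 on every array after trimming 2% at each end, and were not quantile-identical between arrays. The design had assumed log2 values, so log2 was taken, with no offset. Of 10928 probe sets, 5495 were annotated to exactly 1 protein-coding gene. The brightest was kept for the 47 genes with several, which gave 5446 genes. The number of arrays limits the precision.

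One mean per group was fitted over all 13 arrays with limma 3.58.1 in R 4.3.3 (lmFit, eBayes), with Benjamini-Hochberg adjustment over all genes. A gene was called at an adjusted p under 0.05. The p-values measure the spread between cultures. The procedure was tested on simulated data. The 8 members, the gene lists and the tests were chosen with earlier results of these data known. Other genes were named when they were the closest matches to a member, when a list gene was called, or, where its list had no call in the comparison, when it was among up to 3 list genes with the smallest p in ΔtR(CCU)J or up to 2 in SC against MC. HXT13 and ARG3 were named after their values were seen, and UPC2, ROX1, MOT3 and RLM1 for their known roles. Figures were drawn with matplotlib 3.10.9.

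Replicate numbers were checked as pairs: over 3992 genes, deviations of same-numbered arrays correlated with r from 0.125 to 0.672 in all 10 pairs of deletion strains, and from -0.737 to 0.542 between wild type and a deletion strain. Same-numbered arrays of the deletion strains thus tended to deviate in the same direction, which comes from the data and not from the labels. The deviations of a deletion strain's arrays mirror each other, so each r is the same for both replicate numbers. Between an SC and an MC strain r was 0.125 to 0.369. The numbers do not mark a common batch, since the first replicates of the SC and the MC strains were nearest to different wild-type arrays. Alternatives were the replicate number or the nearest wild-type array as a block, median centring, quantile normalization, raising signals to background, leaving out dim genes, averaging probe sets, a trended robust prior, fitting only the arrays compared and leaving out each array or strain. The comparison of each array with its nearest wild-type array was added after seeing the data.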

Additional observations from a re-analysis of the deposited data

Results flagged for a closer look

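TIR1 differed between the groups of strains: its mean log2 difference from wild type in the SC strains minus that in the MC strains was -1.07, past the threshold in the fit across all genes, and all 6 SC arrays lay below the MC mean. The value holds the ΔtR(CCU)J arrays, whose low TIR1 signal was known when the list was made, and is no separate finding. Without ΔtR(CCU)J it was -0.40 and not called (adjusted p = 0.316), and with strain as a random block it was not called. In a search for single arrays far from the rest of their group, run over the 16 combinations of a member and the SC or MC arrays, 0 arrays stood out, where chance gives about 1 in 20. The search takes 1 array at a time in a group that pools strains. It could therefore not flag the pair of low ΔtR(CCU)J arrays for TIR1, which lie close to each other.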

How the results depend on the processing

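In ΔtR(CCU)J the count of called members was 1 (TIR1) in the fit as reported and under the alternatives, except 0 with only the arrays compared. TIR1's difference stayed between -2.58 (quantile normalization) and -2.01 (without wild-type replicate 2). In SC against MC the count was 1 as reported, 2 with the trended robust prior, and 0 with the nearest wild-type array as a block, with strain as a random block, within replicate 1, within replicate 2, and without the strains ΔtR(CCU)J, ΔtR(UCU)M2 or ΔtH(GUG)G1. Leaving out 1 array gave 0 to 3: 2 without wild-type replicate 2 (CWP1 also called), 3 without ΔtH(GUG)G1 replicate 2 (DAN4 and CWP2 also called), and 0 without either array of ΔtM(CAU), ΔtL(GAG)G or ΔtR(UCU)M2, ΔtR(CCU)J replicate 1 or ΔtH(GUG)G1 replicate 1. The cause was not tested.

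With the replicate block TIR1 gave -2.33 in ΔtR(CCU)J, the same as without wild-type replicate 3. Only wild type has a replicate 3, so the block takes up that array and is not a full adjustment for pairing. The block changed no member's call, and the 5 list genes whose calls it lost are named in the report. In the other 4 strains 0 members were called under every alternative run. Of 1136 alternative values of member differences, 1095 were counted as unchanged, and 16 lost and 4 gained a call. A further 21 moved by more than the spread within strains, and 0 called values changed sign. Unchanged meant still called with the same sign, at any distance, or still not called and moved by less than that spread. Values without a test were judged by the move alone. TIR1 in ΔtR(CCU)J at -2.58 with quantile normalization was thus counted as unchanged. Without dim genes 4 members could be fitted, TIR1, TIR3, CWP1 and CWP2.

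Of the 11 list genes called in ΔtR(CCU)J, PAU7 kept its call in all 13 fits with 1 array left out, PAU5, MKK2 and YHB1 in 12, KDX1 in 9, SLT2 and PLB2 in 5, PAU2 and SWI6 in 4, FIT1 in 1 and ERG3 in 0. DAN1 was limited by signal over background.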
